A study of Mus musculus with 5 samples.

Results

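H3K4me1-marked regions that lay at transcript starts and held no Runx3 were described in IL-2-activated CD8-TC (CD8+ cytotoxic T cells). These were the regions of the H3K4me1 peak list whose centre was under 1 kb from an annotated transcript start and that shared 0 bp with any region of the Runx3 peak list. There were 1273 of them among 18992 H3K4me1-marked regions in all, 1673 of which were start-near by this limit. The remaining 400 start-near regions held at least 1 bp of a Runx3-bound region. The cells were splenic CD8-TC of ICR mice, selected on anti-CD8 magnetic beads, TCR-activated for 2 days with plate-bound anti-CD3e and anti-CD28 and then kept for 4 days in 100 u/ml IL-2. All 5 libraries were ChIP-seq of these cells, with 2 Runx3 immunoprecipitations, 2 precipitations with non-immune serum (NIS) as control and 1 H3K4me1 immunoprecipitation. All mice were wild type, and no age or untreated group was given, so no condition was compared. Peaks were called once for each antibody on joined reads, which leaves no replicate error, and since reads per region are not listed, their depth is unknown. Intervals are 95% Wilson intervals for a share and 95% Newcombe intervals for a difference in percentage points, and both cover counting error among regions only. A share whose interval is given may still differ in another culture by an amount that these lists cannot show.

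As a check of the labelled cell type, all 10 of 10 T cell marker genes, among them Cd3e, Cd8a, Cd8b1 and Lck, had an H3K4me1-marked region in the gene or within 5 kb of it. The same was found for 28.6% of all 22350 protein-coding genes, for 3 of 6 natural killer (NK) cell markers, 7 of 16 B cell genes, 7 of 19 myeloid genes and 0 of 10 erythroid and megakaryocyte genes. Cd79a, Pax5, Blk, Vpreb1, Vpreb3 and Igll1 were among the marked B cell genes. Fewer cells carrying the mark and a weaker mark in every cell cannot be told apart in such bulk samples.

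Monomethylation of lysine 4 of histone H3 (H3K4me1) is best known from enhancers, but it also flanks active promoters, where the nucleosomes next to the start itself carry the trimethylated form. Many mammalian promoters lie in CpG islands, stretches in which the CG dinucleotide has been kept, whereas the promoters of tissue-specific genes are more often poor in CpG. Runx3, one of the RUNX transcription factors, acts in the development and function of CD8-TC. The RUNX motif was searched as the hexamer TGTGGT and its variants, namely the hexamer TGTGGC, the hexamer TGCGGT and the hexamer TGCGGC. ETS factors often bind near RUNX sites, and their motif was searched as AGGAAG or else AGGAAA, with the variants CGGAAG or else CGGAAA.

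The 200 bp at the centre of 4 such regions are shown because they differ in the features on which the results below turn, namely the RUNX motif, cover of the start and CpG content of the start. RUNX and ETS motifs of either strand are in capitals. All are on the plus strand of mm9, none holds annotated UTR or coding sequence, and each is the widest region of a gene of the lists below that met its criterion. At Gimap3, a GTPase of lymphocyte survival, chr6:48716845-48717044 lay 427 bp upstream of a start that is not CpG-rich and that the region covered, and it held 1 TGTGGT, read as ACCACA.
Gimap3: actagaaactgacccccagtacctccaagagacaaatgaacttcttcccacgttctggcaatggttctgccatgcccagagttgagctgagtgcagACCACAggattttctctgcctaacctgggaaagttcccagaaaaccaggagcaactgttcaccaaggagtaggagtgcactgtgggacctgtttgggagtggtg
At Akt2, a serine/threonine kinase of the insulin and survival pathway, the intronic window chr7:28394229-28394428 lay 648 bp downstream of a covered start that is not CpG-rich, with no RUNX motif and 2 ETS motifs.
Akt2: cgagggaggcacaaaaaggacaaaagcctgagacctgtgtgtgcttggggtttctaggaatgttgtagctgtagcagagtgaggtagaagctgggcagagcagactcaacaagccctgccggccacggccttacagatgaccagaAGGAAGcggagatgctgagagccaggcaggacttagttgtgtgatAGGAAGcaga
At Rpl28, a protein of the large ribosomal subunit, chr7:4746203-4746402 lay 851 bp downstream of a CpG-rich start that the region did not reach, and no RUNX or ETS motif was found in these letters.
Rpl28: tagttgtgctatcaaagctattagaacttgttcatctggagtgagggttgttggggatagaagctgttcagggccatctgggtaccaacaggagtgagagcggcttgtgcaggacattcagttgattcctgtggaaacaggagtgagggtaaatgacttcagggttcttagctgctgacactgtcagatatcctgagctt
At E2f1, a transcription factor of the G1 to S transition, chr2:154396439-154396638 lay 911 bp upstream of a CpG-rich start outside the region, with 1 TGTGGT.
E2f1: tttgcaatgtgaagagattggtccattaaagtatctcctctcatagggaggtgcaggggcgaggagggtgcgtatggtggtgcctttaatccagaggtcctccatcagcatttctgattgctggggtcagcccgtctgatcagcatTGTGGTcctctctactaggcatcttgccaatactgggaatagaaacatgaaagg
Although both starts of the latter pair are CpG-rich, the GC content of the windows beside them was 47.5% and 49.5%, close to the 51.5% and 54% of the first pair.

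The share without Runx3 was 76.1% of the start-near regions (interval 74.0 to 78.1%). It was 75.8% (74.6 to 77.0%) among the 4852 H3K4me1-marked regions with centre 1 to 5 kb from a start and 68.1% (67.3 to 68.9%) among the 12467 regions over 5 kb away. Wider regions have more room for a Runx3-bound region, and the share without Runx3 fell with width, from 85.3% of start-near regions under 1000 bp to 78.8% from 1000 to under 2000 bp and 58.7% at 2000 bp or more. In the same width classes over 5 kb from a start it was 77.7%, 74.3% and 54.4%. The regions without Runx3 ranged from 414 to 10187 bp in width with a median of 1300 bp, and those holding Runx3 from 517 to 7238 bp with a median of 1597 bp, a difference that the choice by shared bases itself favours. At the limits used, the farthest centre included was 997 bp from a start of Slc41a2 and the nearest one left out was 1000 bp from a start of H6pd. The smallest gap to a Runx3-bound region was 3 bp, at Klhl18, and the smallest shared length among the regions set aside was 11 bp, at Slc39a13.

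Most of the starts belonged to protein-coding genes. For 412 of the 1273 regions (32.4%, interval 29.9 to 35.0%) the nearest start was the first, that is the 5′-most, start of a protein-coding gene, and for 643 (50.5%, 47.8 to 53.3%) it was a later start within such a gene. Long non-coding RNAs accounted for 109 regions, small RNAs for 75, antigen receptor gene segments for 17 and pseudogenes for 17. All annotated starts together, 86916 in number, were 25.7% first and 54.8% later starts of protein-coding genes and 6.41% starts of pseudogenes, compared to 1.34% (0.835 to 2.13%) of the regions. First starts of protein-coding genes made up 32.4% of regions without and 32.25% of regions with Runx3 (difference 0.114 points, −5.24 to 5.23) and later starts 50.5% and 46% (difference 4.51 points, −1.10 to 10.1). Starts of antigen receptor segments were less frequent without Runx3, at 1.34% compared to 3.5% (difference −2.16 points, −4.51 to −0.552). The centre lay in an intron in 703 regions (55.2%), between genes in 348 (27.3%), in a non-coding exon in 80 and in coding exon or UTR in 71 each.

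First and later starts differed in how the mark was placed. At first starts, 71 of 412 centres (17.2%, interval 13.9 to 21.2%) lay downstream of the start, compared to 346 of 643 (53.8%, 49.9 to 57.6%) at later starts, where 78.8% of the centres were intronic. Downstream of a first start a later start of the same gene is often nearer, which by itself moves centres to the second class. With 1 start per protein-coding gene the downstream share was 27.9%. The start was covered by 34.7% of regions at first starts and by 65.5% at later starts (difference −30.8 points, −36.5 to −24.7). Over all starts, 530 of 1273 centres were downstream (41.6%, 39.0 to 44.4%), much as for the regions holding Runx3 (41%, difference 0.634 points, −4.94 to 6.08).

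CpG-rich starts were more frequent next to regions without Runx3 than next to those with it. A start was called CpG-rich when a window of 500 bp within 1 kb on either side of it had an observed to expected CpG ratio over 0.75 and a GC content over 55%. Among regions without Runx3, 357 of 1273 (28.0%, interval 25.6 to 30.6%) were at CpG-rich starts, compared to 51 of 400 (12.75%, 9.83 to 16.4%) of those holding Runx3, a difference of 15.3 points (10.9 to 19.2). Both shares were below the 47.9% of all protein-coding gene starts. Seen from the starts, 87.5% of the 408 start-near regions at CpG-rich starts and 72.4% of the 1265 at other starts were without Runx3 (difference 15.1 points, 10.8 to 18.9). The Runx3-bound regions that lay under 1 kb from a start but outside H3K4me1 showed the opposite makeup, with 1487 of 1924 (77.3%, 75.4 to 79.1%) at CpG-rich starts. Among regions at least 1000 bp wide the first difference was smaller, at 9.58 points. It was 9.06 points when regions with a Runx3-bound region within 500 bp were counted as holding it. The choice by shared bases depends on the width and place of a region. How far this sets the difference was not tested.

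At CpG-rich starts the mark mostly lay beside the start and at other starts it mostly lay over it. Of the 357 regions without Runx3 at CpG-rich starts, 63 covered the start (17.6%, interval 14.0 to 21.9%), whereas 661 of the 916 at other starts did so (72.2%, 69.2 to 74.97%), a difference of −54.5 points (−59.1 to −49.3). The same was seen at first starts (11.5% and 54.8%) and at later starts (23.9% and 77.2%). Regions at CpG-rich starts were narrower, with a median width of 1047 bp compared to 1434 bp, but the difference was also present within width classes. It was −30.2 points (−39.5 to −20.3) under 1000 bp, −45.5 points (−52.2 to −37.7) from 1000 to under 1500 bp and −29.8 points (−48.0 to −14.3) at 1500 bp or more. The shares themselves moved with width. Under 1000 bp, only 54 of 135 regions at other starts covered the start (40%). At 1500 bp or more, 18 of 29 regions at CpG-rich starts covered it (62.1%). Regions holding Runx3 showed the same split, since 17.6% covered a CpG-rich start and 76.2% covered another start. Cover of the start was lower without Runx3 over all starts (56.9% compared to 68.75%, difference −11.9 points, −17.0 to −6.46), but within the 2 classes the differences were 0 points (−13.1 to 9.14) at CpG-rich and −4.06 points (−9.18 to 1.45) at other starts.

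**Figure D1:**
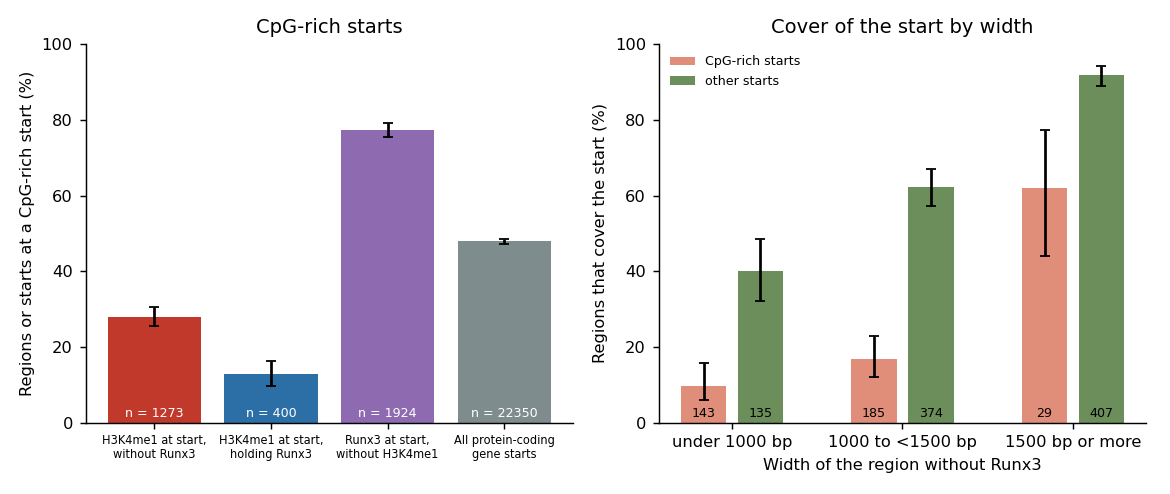
The left panel plots the percentage of regions, or of gene starts, that are at a CpG-rich start for 4 sets, and the right panel the percentage of regions without Runx3 that cover their nearest start, by width class and CpG class of the start. Bars start at 0, error bars are 95% Wilson intervals, and numbers at the base give the regions or starts. CpG-rich starts make up 28.0% of the first bar and 77.3% of the third, and in every width class cover of CpG-rich starts is below that of other starts.

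Followed by position, the mark at CpG-rich starts without Runx3 covered 57.1% of the 357 starts at 500 bp upstream, 17.6% at the start and 41.2% at 500 bp downstream. At the 909 distinct other starts the values at these positions were 73.5%, 73.4% and 59.8%, with no dip at the start. For the 294 regions that did not reach their CpG-rich start, the median distance from start to nearest edge was 237.5 bp (range 2 to 623 bp), and for the 255 that did not reach another start it was 164 bp (1 to 653 bp). A further H3K4me1-marked region with its edge within 2 kb across the start was listed for 48 of these 294 (16.3%, 12.5 to 21.0%) and for 43 of the 255 (16.9%, 12.8 to 21.9%). For most starts that were not reached, the mark was listed on 1 side only. The upstream side was the more frequent at both kinds of start, with 42.0% of centres downstream at CpG-rich and 41.5% at other starts.

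**Figure D2:**
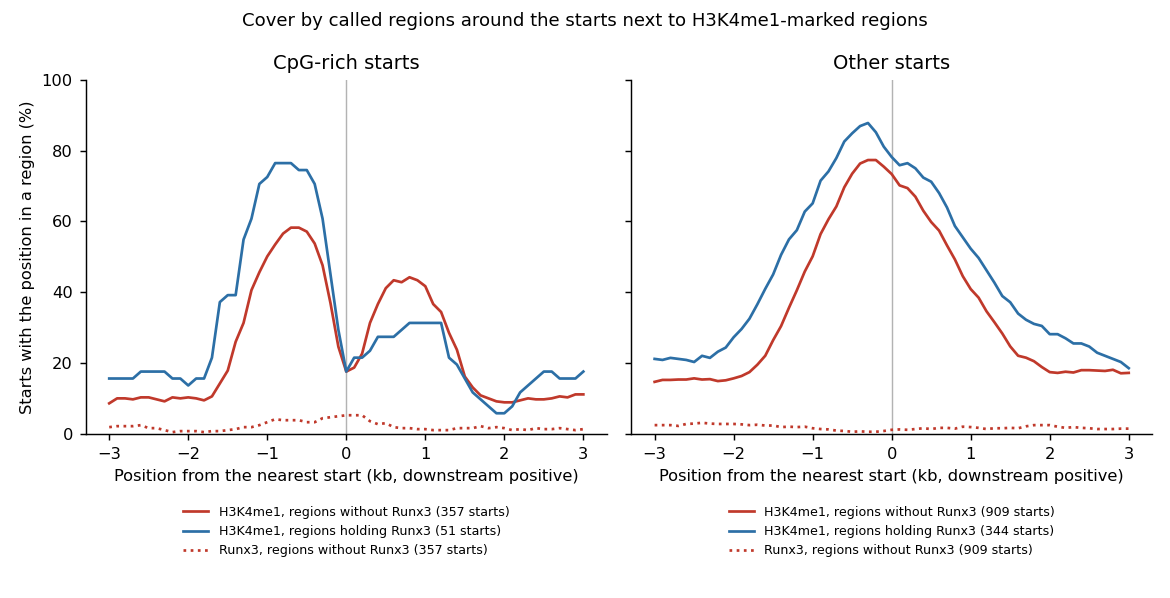
Both panels plot the percentage of starts (y axis) whose position at a given distance from the start (x axis, kb, downstream positive, in steps of 100 bp) lies in a called region, for CpG-rich starts on the left and other starts on the right. Solid lines are H3K4me1 cover next to regions without Runx3 (red) and holding Runx3 (blue), and the dotted line is Runx3 cover next to the regions without Runx3. The red line dips to 17.6% at CpG-rich starts and stands at 73.4% at other starts. Cover within 1 kb is raised by the choice of regions.

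Absence of Runx3 from these regions did not mean its absence nearby. The median gap from a region to the nearest Runx3-bound region was 14966 bp. A Runx3-bound region was within 1 kb of 176 of the 1273 regions (13.8%, interval 12.0 to 15.8%), within 10 kb of 535 (42.0%, 39.3 to 44.8%) and within 50 kb of 956 (75.1%). For the 8490 H3K4me1-marked regions without Runx3 over 5 kb from a start, the shares were 9.65%, 40.7% and 77.4%, so that the start-near regions were ahead at 1 kb (difference 4.18 points, 2.28 to 6.27) and not at 10 kb (1.32 points, −1.56 to 4.24). Among the 81 regions with a gap under 1 kb that did not reach their start, the Runx3-bound region was on the side of the start in 68 (84.0%, 74.5 to 90.4%), in 41 of 45 at CpG-rich starts and in 27 of 36 at other starts. A Runx3-bound region lay within 500 bp of the start itself for 41 of the 357 regions at CpG-rich starts (11.5%, 8.58 to 15.2%), compared to 14.3% (13.6 to 15.0%) of all 10700 CpG-rich protein-coding gene starts, and for 28 of 916 at other starts (3.06%, 2.12 to 4.38%). A region chosen to share no base with Runx3 leaves less room for it at a start that the region covers. Of the regions at other starts, 72.2% covered the start. How far this sets the contrast was not tested. Of all 22350 protein-coding gene starts, CpG-rich or not, 8.34% had a Runx3-bound region within 500 bp.

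By gene, 1040 of 22350 protein-coding genes (4.65%) had such a region without Runx3 at one of their starts and 310 (1.39%) had one holding Runx3, with 46 genes having both kinds. Of the 1040 genes, 170 (16.3%, interval 14.2 to 18.7%) also had a Runx3-bound region at a start outside the mark. In all, 540 of the 1040 (51.9%, 48.9 to 54.9%) had a Runx3-bound region in the gene or within 5 kb, compared to 23.5% of all protein-coding genes and 57.6% (56.4 to 58.8%) of the 6388 genes with any H3K4me1-marked region there.

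RUNX motifs were not lacking from the regions without Runx3. Within the central 200 bp, 440 of 1273 (34.6%, interval 32.0 to 37.2%) held one of the RUNX hexamers on either strand, compared to 156 of 400 (39.0%, 34.3 to 43.9%) of regions holding Runx3 (difference −4.44 points, −9.93 to 0.922). In windows of the same length around all protein-coding gene starts the share was 36.7%. By variant, TGTGGT was found in 17.4% (15.4 to 19.5%) without Runx3 and in 22.5% (18.7 to 26.8%) with it (difference −5.14 points, −9.91 to −0.743), while 10.1% of gene start windows held it. TGTGGC was found in 16.6% and 18.5% (difference −1.92 points, −6.46 to 2.18), and in 13.2% of gene start windows. Whether these 2 differences are unlike was not tested. At starts that are not CpG-rich the difference was −2.14 points (−8.19 to 3.77) for any RUNX hexamer and −4.98 points (−10.2 to −0.0867) for TGTGGT. Of the 8490 marked regions without Runx3 over 5 kb from a start, 20.9% (20.1 to 21.8%) held TGTGGT. The CG-containing variants TGCGGT and TGCGGC were found in 2.59% and 2.12% of regions without Runx3 and in 3% and 1.5% of those with it. In gene start windows their shares were 5.57% and 13.3%. Over whole regions, 91.0% without and 95.75% with Runx3 held a RUNX motif, at 2.12 and 2.44 motifs per kb.

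Next to the start the same comparison gave a value of its own, and whether it differs from that at the centre of the mark was not tested. In the 200 bp upstream of the nearest start, a RUNX motif was found for 450 of 1273 regions without Runx3 (35.3%, interval 32.8 to 38.0%) and for 179 of 400 with it (44.75%, 40.0 to 49.6%), a difference of −9.40 points (−14.9 to −3.91), and for 31.8% of all protein-coding gene starts. For TGTGGT these shares were 14.9% and 23.75% (difference −8.82 points, −13.6 to −4.41), compared to 10.3% upstream of all protein-coding gene starts. ETS motifs had close shares in both groups, at 51.9% and 51.25% of central windows (difference 0.675 points, −4.91 to 6.27) and 51.9% of gene start windows. AP-1 motifs (TGAGTCA or TGACTCA, the site of Fos and Jun dimers) were found in 4.40% (3.40 to 5.67%) of central windows without Runx3 and 3% (1.72 to 5.17%) with it, and in 2.64% (2.43 to 2.85%) of gene start windows. The GC box GGGCGG is a site of Sp factors in many promoters. It was found in only 3.22% of central windows without Runx3 and 3.25% of those with it. In the windows upstream of the start the shares were 23.8% without and 18.25% with Runx3 (difference 5.55 points, 0.888 to 9.79). Upstream of all protein-coding gene starts the share was 38.0%. A match in these windows is a run of letters and no measurement of binding, and the shares were not adjusted for GC content, whose median in the central 200 bp was 47.5% without Runx3, 48.5% with it and 59% around gene starts. Nor were the upstream shares split by CpG class of the start. CpG-rich starts made up 28.0% of regions without and 12.75% of regions with Runx3. How far this sets the upstream differences was not tested.

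**Figure D3:**
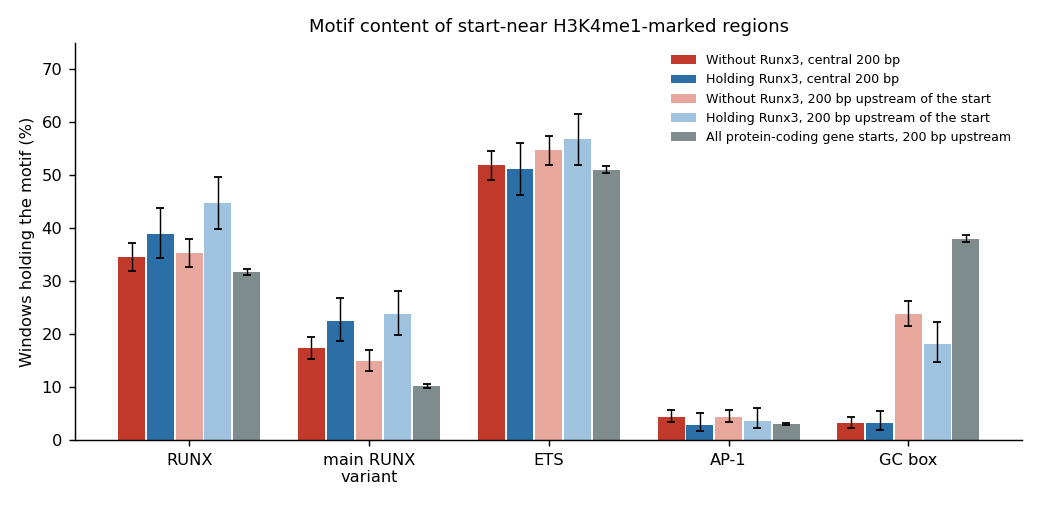
Bars give the percentage of 200 bp windows (y axis, from 0) that hold a RUNX motif, its TGTGGT variant, an ETS motif, an AP-1 motif or a GC box, in regions without (red) and with Runx3 (blue), for central windows (dark) and for the windows upstream of the nearest start (light), beside the windows upstream of all protein-coding gene starts (grey). Error bars are 95% Wilson intervals. The light bars for RUNX, 35.3% and 44.75%, stand farther apart than the dark ones, 34.6% and 39.0%.

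In all, 14 gene lists were then followed to see at whose starts the mark was found without Runx3. The count for each list is read against the 4.65% of all protein-coding genes that had such a region. The lists also differed in genes with any H3K4me1-marked region in the gene or within 5 kb. It was listed for 43 of 45 TCR, 29 of 35 costimulatory, 63 of 80 transcription factor and 31 of 79 ribosomal protein genes. Over all protein-coding genes that share was 28.6%. The shares of either kind of start-near region were not adjusted for this difference. The highest shares were among costimulatory and inhibitory receptors, with 10 of 35 genes (28.6%, interval 16.3 to 45.1%), genes of the TCR complex and its signalling, with 11 of 45 (24.4%, 14.2 to 38.7%), and cytotoxic effectors and cytokines, with 7 of 38 (18.4%, 9.22 to 33.4%). The lists of survival and apoptosis (6 of 38), adhesion and homing (5 of 37), cell cycle (5 of 40), cytokine receptors and JAK-STAT (5 of 45) and lymphocyte transcription factors (6 of 80) followed at 15.8%, 13.5%, 12.5%, 11.1% and 7.5%. Developmental regulators of other tissues had 0 of 68, erythroid and megakaryocyte genes 0 of 10 and B cell genes 0 of 16, whereas myeloid genes had 2 of 19 (10.5%, 2.94 to 31.4%) and proteasome genes 2 of 39 (5.13%, 1.42 to 16.9%).

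Regions holding Runx3 were found at the starts of 6 of 45 TCR genes (13.3%), 5 of 38 cytotoxic genes (13.2%), 5 of 45 cytokine receptor genes (11.1%) and 4 of 35 costimulatory genes (11.4%), against 1.39% of all protein-coding genes. The numbers were 2 of 80 for lymphocyte transcription factors, 2 of 38 for survival, 2 of 37 for adhesion and 1 of 40 for the cell cycle. Ribosomal protein genes had a region without Runx3 at 8 of 79 (10.1%, 5.22 to 18.7%) and one holding it at 0 of 79, an interval of 0 to 4.64% that includes the share of all genes. A Runx3-bound region at a start outside the mark was listed for 8.91% of all protein-coding genes. It was listed for 17 of 79 ribosomal protein, 7 of 39 proteasome, 11 of 45 TCR and 19 of 80 transcription factor genes.

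**Figure D4:**
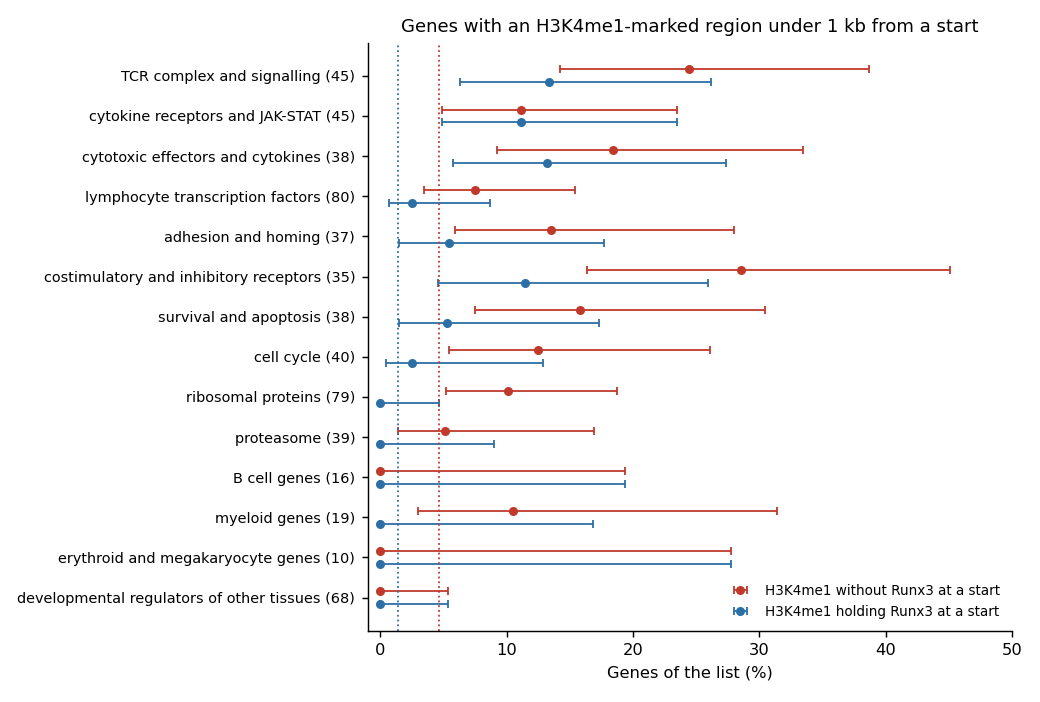
For each gene list (y axis, number of genes found in the annotation in parentheses) the points give the percentage of genes with an H3K4me1-marked region under 1 kb from a start, without Runx3 in red and holding Runx3 in blue, with 95% Wilson intervals. Dotted lines are the values over all protein-coding genes, 4.65% and 1.39%. Costimulatory receptors (28.6%) and TCR genes (24.4%) lie farthest to the right, and developmental regulators lie at 0 of 68 for both.

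Among TCR signalling genes, the widest region was at Fyb, an adaptor of the SLP-76 complex, where 2675 bp (chr15:6533639-6536313, mm9) lay over a later start in an intron and 6.115 kb from the nearest Runx3-bound region. Lck, the kinase that phosphorylates the TCR chains, had a region of 1628 bp (chr4:129231887-129233514) over a CpG-rich later start, 2.073 kb from Runx3, and also had a region holding Runx3 at a start. Lcp2, which encodes SLP-76 itself, had 1469 bp over its first start. Txk, a Tec family kinase, had 2 regions at a later start, of which the first (1275 bp) covered it and the second (1082 bp) lay upstream. Like Lck, Txk also had a region holding Runx3 at a start. At the other genes of the list with a region the start was not covered.

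Cd247, the zeta chain of the TCR complex, had 1189 bp centred 655 bp upstream of its first start. Vav1, a guanine nucleotide exchange factor, had 1064 bp centred 632 bp upstream of its first start. Fyn, the second Src family kinase of T cells, had 1098 bp (chr10:39087445-39088542) centred 667 bp upstream of its CpG-rich first start. There the nearest Runx3-bound region was 0.604 kb away, and 4 Runx3-bound regions lay in the gene or within 5 kb. Dgkz, Sit1 and Ptpn6, all restraints on TCR signalling, had regions of 1147, 928 and 766 bp that stopped short of the start. At Dgkz, which removes diacylglycerol, the nearest Runx3-bound region was 220.458 kb away.

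Among costimulatory and inhibitory receptors, the widest regions covered the first start. They were found at Cd101 (2918 bp, chr3:100832654-100835571, 24.993 kb from Runx3), at Havcr2, which encodes the inhibitory receptor Tim-3 (2234 bp, chr11:46266537-46268770, 15.087 kb), and at Ctla4, the inhibitory counterpart of CD28 (2127 bp, chr1:60943215-60945341, 10.768 kb). Ctla4 had a second region of 1033 bp over a later start, 0.105 kb from a Runx3-bound region. Lair1, a collagen receptor, had 1547 bp over its first start. Tnfrsf18 (GITR) and Tnfrsf9 (4-1BB), both of the TNF receptor family, had 1677 bp and 1419 bp over later starts, 3.245 and 3.318 kb from Runx3. Tnfrsf9 also had a start with a mark holding Runx3, and 5 Runx3-bound regions in or near the gene. At Cd27, Cd200r1 and Slamf1 the regions of 1058, 932 and 862 bp lay beside the start. None of the 11 regions of this list was at a CpG-rich start.

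Among cytotoxic effectors and cytokines, Gzma, the granule protease granzyme A, had 2215 bp (chr13:113890334-113892548) over its first start with no Runx3-bound region nearer than 32.258 kb. Serpinb9, an inhibitor of granzyme B, had 1827 bp over its first start, and here Runx3 was 0.519 kb away. The chemokine gene Ccl3 had 1694 bp (chr11:83462005-83463698) centred 5 bp from its first start, 7.118 kb from Runx3. Il24 and Csf1 had 1876 bp and 1820 bp over later starts, 47.256 and 52.94 kb from Runx3. Tgfb1 and Tnfsf10, which encode TGF-beta1 and the death ligand TRAIL, had regions of 1154 and 1117 bp centred 951 and 914 bp upstream of the start and not reaching it. Tgfb1 is the CpG-rich one of these 7 genes, and its region was 0.505 kb from Runx3.

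In the cytokine receptor and JAK-STAT list, Il6st (the shared receptor chain gp130), Socs3 (a feedback inhibitor of JAK kinases) and Stat4 (the IL-12 transducer) had regions of 1454, 1427 and 1411 bp over a start, 32.417, 3.934 and 2.763 kb from Runx3. Jak3, the kinase of the common gamma chain receptors, had 2 regions, 1377 bp over a later start and 1168 bp beside the first start, with gaps to Runx3 of 0.973 and 0.261 kb. Il4ra had 1015 bp that stopped short of its CpG-rich first start. Among lymphocyte transcription factors, Irf1 (2147 bp), the AP-1 subunit gene Jund (1459 bp), Zeb1 (1219 bp) and Bach2 (1054 bp) had covered starts, and Ikzf1 (1045 bp) and Nr4a3 (1020 bp) did not. At Irf1 the covered start nearest to the centre is listed under Gm17334. Bach2 had 11 Runx3-bound regions in or near the gene, the nearest 0.652 kb from the edge of the marked region.

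Among adhesion and homing genes, the chemokine receptor gene Ccr4 had 1781 bp over its first start, 7.301 kb from Runx3. Gpr183, the oxysterol receptor EBI2, and Cd69, the early activation antigen that retains cells in tissue, had 1117 and 1289 bp upstream of a first start that was not covered. At P2rx7, a receptor of extracellular ATP, 1413 bp lay over a later start. In the survival list, Akt2 had 4800 bp, Traf1 3626 bp, Gimap3 2298 bp, Traf2 2177 bp and Tnfaip3 (the NF-kB inhibitor A20) 2161 bp over covered starts. Traf1 also had a region holding Runx3 at a start. The start of Bbc3 (Puma), which is CpG-rich, was not covered by its region of 1077 bp. In the cell cycle list the widest was at Top2a, the DNA topoisomerase of dividing cells (1417 bp, 72.626 kb from Runx3), followed by Cdk4 (1400 bp, 0.106 kb), Cdc25b (1248 bp), E2f1 (1090 bp) and Ccne2 (1035 bp). In the myeloid list, Itgam, the CD11b integrin, had 2183 bp over a later start and 1155 bp beside another, and Fcgr3, an Fc receptor, 1799 bp over a later start.

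Ribosomal protein genes had regions mainly at later starts. Rps19 had 2284 bp, Rpl11 2095 and 1920 bp at 2 starts, Rpl12 2002 bp, Rpl18 1737 bp and Rpl27 1606 bp, all over the start. Rpl28 and Rpl35, at CpG-rich starts that were not covered, were 98.449 and 1.197 kb from Runx3. The proteasome genes Psmb3 and Psmb4 had 1412 and 933 bp, and only the first covered its start.

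The widest regions of all lay within genes and not at their first starts. The widest, 10187 bp (chr11:22742080-22752266), covered the start of a SNORA63 small nucleolar RNA and ended 0.369 kb from a Runx3-bound region. It was followed by Fam53b (8757 bp), Pdcd4 (5734 bp), Lsm4 (5254 bp), Rab5c (5170 bp), Tg (5078 bp), a 5S_rRNA copy (5002 bp), Psap (4970 bp), Ehd1 (4967 bp) and Akt2 (4800 bp). Of these 10, Pdcd4, a regulator of translation, was the exception in that the start was the first start of its gene, and none of the 10 was at a CpG-rich start. The narrowest were 414 bp at Atp6v0a2, 478 bp at Park7 and 515 bp at a SNORA17 copy, and none of these reached the start. Of the 75 regions at small RNA starts, 47 had that start inside a protein-coding gene. Named after their values were seen, Mir23a (2352 bp) and Mir425 (1152 bp) were among the 18 microRNA starts, both covered, 7.907 and 58.288 kb from Runx3.

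The starts of antigen receptor segments were taken up after the values were seen. Over the 2.73 Mb of annotated immunoglobulin heavy chain (Igh) segments (chr12:114509484-117238672), 23 start-near H3K4me1-marked regions were listed. Of these, 13 were without Runx3 and 10 held it. The share without Runx3, 56.5% (interval 36.8 to 74.4%), was lower than the 76.4% (74.3 to 78.4%) in the rest of the genome (difference −19.8 points, −39.7 to −1.87). In the T cell receptor loci 1 region without and 0 with Runx3 were found for gamma, 3 and 1 for alpha (Trac, Trav2 and Gm10907 without Runx3) and 1 and 4 for beta (Trbv5 without). No start-near H3K4me1-marked region was listed among the 105 segments of the kappa or the 3 of the lambda light chain locus.

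Of the 13 heavy chain regions, 11 were at starts annotated as V segments, 1 at a D segment and 1 at Ighv1-73, which is annotated as protein-coding. They made up 11 of the 112 annotated V starts (9.82%, interval 5.57 to 16.7%), with 4 of the 6 named Ighv8, namely Ighv8-5, Ighv8-11, Ighv8-12 and Ighv8-14. All 11 covered the start. Their width ranged from 726 bp (Gm16710) to 2048 bp (Ighv8-14) and their gap to Runx3 from 18.237 kb (Ighv1-84) to 184.834 kb (Ighv8-12). V segment promoters are known for the octamer ATGCAAAT, the site of Oct factors, which was searched on both strands in the 200 bp upstream of the start. It was found for 9 of these 11 starts, for 53 of the other V starts (52.5%, 42.8 to 61.9%), for 1.36% of all protein-coding gene starts and for 1.81% of all 1273 regions.

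The bases 100 to 41 upstream of 4 of these starts are shown because they hold the octamer, in capitals, and because 3 of them are close copies. They are read on the minus strand of mm9, 5′ to 3′, from chr12:116306248-116306307 for Ighv8-5, chr12:116532750-116532809 for Gm9740, chr12:116805837-116805896 for Ighv8-11 and chr12:116003126-116003185 for Ighv1-23.
Ighv8-5: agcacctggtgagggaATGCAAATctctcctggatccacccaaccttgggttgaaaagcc
Gm9740: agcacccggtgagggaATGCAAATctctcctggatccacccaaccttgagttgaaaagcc
Ighv8-11: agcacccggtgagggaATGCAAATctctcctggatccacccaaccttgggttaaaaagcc
Ighv1-23: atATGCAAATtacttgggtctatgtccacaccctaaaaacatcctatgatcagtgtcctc
Each pair of the first 3 had 58 of 60 bases in common. Only uniquely aligned reads had been kept, so a read that matched several copies equally well was not counted. Identity was counted over these 60 bases and not over the whole marked regions. How many reads the mark at such copies rests on is not given in the lists. B cell markers were present in the H3K4me1 list at 7 of 16 genes, among them Cd79a and Pax5, and at 0 of 16 at a start. The cells had been selected on anti-CD8 beads and cultured on anti-CD3e. The paper reports that nearly all cells were CD3+ CD8-TC at the end of culture. Whether B cells contributed to the heavy chain regions was not tested.

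**Figure D5:**
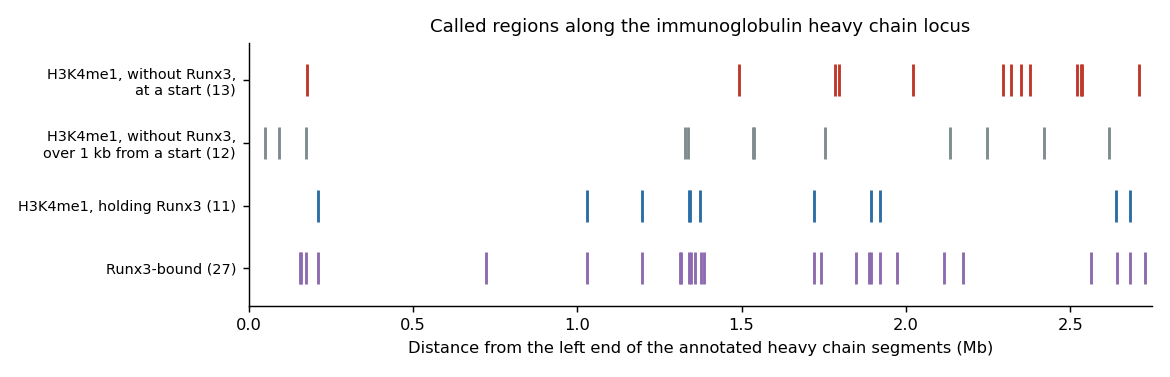
Each tick is a called region, placed by its distance (x axis, Mb) from the left end of the annotated heavy chain segments on mm9, in 4 rows (number of regions in parentheses). Of the 13 start-near regions without Runx3 in the top row, 12 lie to the right of the middle, where Runx3-bound regions are listed as well.

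Chromosome X held 3 of the 1273 regions (0.236%, interval 0.0802 to 0.691%) and 1 of the 400 holding Runx3, although 4.17% of protein-coding gene starts are on X. This equals 0.322 regions for each 100 gene starts on X, compared to a range over the autosomes from 3.68 on chromosome 18 to 9.74 on chromosome 11. The whole H3K4me1 list had 0.279% of its regions on X and the Runx3 list 1.02%.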

How the data were processed

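ChIP-seq of IL-2-activated CD8-TC had been made with anti-Runx3 (2 libraries), NIS (2) and anti-H3K4me1 (1 in the labels, although the growth protocol mentions 2 biological repeats for both antibodies). The authors aligned reads to mm9 with ELAND, kept unique alignments, joined repeats and called peaks with MACS against joined NIS, after scaling the larger read set down. The deposited values are start and end positions in bp, with neither a score nor a signal height. Library totals given in the methods of the study were not used here. Scaling and joining hide weak regions and the spread between repeats, and a region without Runx3 is one where no peak was called.

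The sequence was NCBIM37 (mm9) and the annotation GENCODE vM1, with 86916 starts. A region held Runx3 when at least 1 bp was shared. Positions are counted from 1. Offsets run from the nearest start to the region centre, and gaps from edge to edge. Motif matches, CpG content and cover were counted with Python 3.11.15, NumPy 2.4.6 and pandas 2.3.3, and plots made with matplotlib 3.10.9. Overlap, gap, nearest start, motif and interval functions were tested on simulated data. The regions and gene lists (589 of 592 names found, with ribosomal and proteasome genes taken by symbol) were chosen with earlier results of these data known. Named were the 10 widest and 3 narrowest regions, up to 6 genes of a list from the widest on, and list genes whose start was not covered, except that some are not reported here. No test was run, since no value has a replicate. Other distances, starts, region sets, CpG definitions and motif windows were tried.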

Additional observations from a re-analysis of the deposited data

How the results depend on the processing

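Across 12 results, 50 values were computed under other settings. Of these, 28 stayed within the spread set for them, 22 moved and 0 turned direction beyond that spread. Within it, the ETS difference changed sign, from 0.675 points in central windows to −2.08 points in the 200 bp upstream of the start. ETS motifs per kb, without minus with Runx3, went from 0.0556 in central windows to −0.0608 over whole regions. With centres under 500 bp from a start, 93.9% of regions covered it and 1.80% of protein-coding genes had a region, and with centres under 2 kb 28.7% and 10.1%, with 49.5% of centres downstream and a cover difference between CpG-rich and other starts of −40.0 points. With 1 start per protein-coding gene, cover was 34.5%, the downstream share 27.9%, the share of genes 2.35%, the CpG-rich difference to regions holding Runx3 19.98 points and the cover difference −45.2 points. Starts of protein-coding genes alone gave 53.0% cover. Counting regions with Runx3 within 500 bp as holding it gave 69.9% without Runx3 and a CpG-rich difference of 9.06 points. Counting Runx3 as held only where most of its region lay inside gave 84.8% without Runx3. For regions at least 1000 bp wide the share without Runx3 was 73.9% and the CpG-rich difference 9.58 points, with 65.9% cover. Without regions that cover the start, 38.3% of centres were downstream. Gaps under 5 kb and 50 kb gave 30.2% and 75.1% in place of 42.0%. A CpG call from the 500 bp around the start gave a cover difference of −66.8 points. The cover difference and its 5 other settings were chosen after the data were seen. The causes of these shifts were not tested beyond what each setting changes by construction.

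No paired analysis was possible because peaks had been called on joined reads, so no value per replicate exists, and for the same reason leaving out a replicate was not possible. Reads per region and peak heights are not in the lists, so weak Runx3 binding below the calling threshold cannot be told apart from its absence.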
